A study of Homo sapiens with 36 samples.

Results

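EA.hy926 cells kept for 12 weeks in 10 or 100 nM perfluorooctanoic acid (PFOA) were set against cells kept for the same 12 weeks in vehicle or in 1 nM PFOA. The comparison took the 12 libraries of the 12-week exposure out of the 36 libraries of the study. The low pool held 3 libraries of the vehicle control (0.05% DMSO, 0 nM PFOA) and 3 of 1 nM, and the high pool held 3 of 10 nM and 3 of 100 nM. Pools were set by the labelled dose alone. EA.hy926 is a permanent human line made by fusing umbilical vein endothelial cells with the lung carcinoma line A549, so every value describes 1 hybrid line grown in serum and HAT medium. All 12 libraries share that line, the medium and polyadenylated RNA sequencing of cells collected at a passage. The labels call the 3 libraries of a dose biological replicates and speak of flasks, without saying whether the flasks descended from 1 culture, so the p-values measure the spread between these samples. The same 4 doses after 6 weeks, with their own controls, serve below as a second time point.

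PFOA is a fluorinated fatty acid analogue that persists in blood and is best known as a ligand of the peroxisome proliferator-activated receptors, which switch on genes of fatty acid oxidation. The study was designed to follow how the transcriptome depends on concentration, and the pooled comparison asks whether the upper doses differ from the lower end of the dose series. Endothelial cells line blood vessels and answer flow, growth factors and stress with a fast wave of transcription factors such as FOS, EGR1, KLF4 and ATF3. Bone morphogenetic protein (BMP) signals act in the same cells through the ID proteins, and their strength is set by inhibitors such as noggin.

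The libraries differed among themselves along 1 main axis, on which the pools overlapped. Recovered reads ranged from 17815292 to 19077902 per library. The size factors that divided them ranged more widely, from 0.54 in vehicle replicate 2 to 1.28 in 100 nM replicate 3. The first principal component held 69.2% of the variance. Its mean score was 21.05 in the low and -21.05 in the high pool, the 3 lowest scores belonged to high libraries, and scores lay between -42.1 and 113.7 in the low pool and between -74.0 and 51.2 in the high pool (exact permutation test over every split of the 12 libraries into 6 and 6, two-sided, p = 0.201). Scores are centred over the 12 libraries, so the pool means are equal and opposite by construction. The score of 113.7 was that of vehicle replicate 2, and the next highest in the low pool was 36.5, in 1 nM replicate 3. Ribosomal protein genes took 15.9% to 21.5% of the summed values in the low pool, with a mean of 18.6% ± 2.35 (SD, n = 6). In the high pool the share was 11.02% to 22.2%, with a mean of 15.7% ± 4.44 (SD, n = 6), and the exact permutation p of the difference was 0.186. The high pool was split: 10 nM replicates 2 and 3 and 100 nM replicate 3 held 12.8%, 12.1% and 11.02%, and its other 3 libraries 17.2% to 22.2%. Over all 12 libraries the difference was -2.88 percentage points. Leaving out single libraries gave from -1.94, without 100 nM replicate 3 (exact permutation p = 0.351), to -4.18, without 10 nM replicate 1 (exact permutation p = 0.0476), the high library with the largest share. The mitochondrially encoded genes took 5.83% to 9.17% in the low and 5.51% to 10.3% in the high pool (exact permutation p = 0.734). Of 13 endothelial markers 11 had a mean of at least 10, and CLDN5 was at 0 in every library. Of 11 epithelial markers 6 reached that mean, keratins foremost, and CDH1 and NKX2-1 were at 0 in every library. Of 10 leukocyte markers 1 reached it, the lysosomal CD68, and of 9 mural and fibroblast markers 2 did. The epithelial markers summed to between 30856 and 116376 in the low libraries and between 21895 and 70781 in the high ones, and the endothelial markers to between 21251 and 60765 and between 20418 and 34476. The part of cell composition in the results was not tested.

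**Figure D1:**
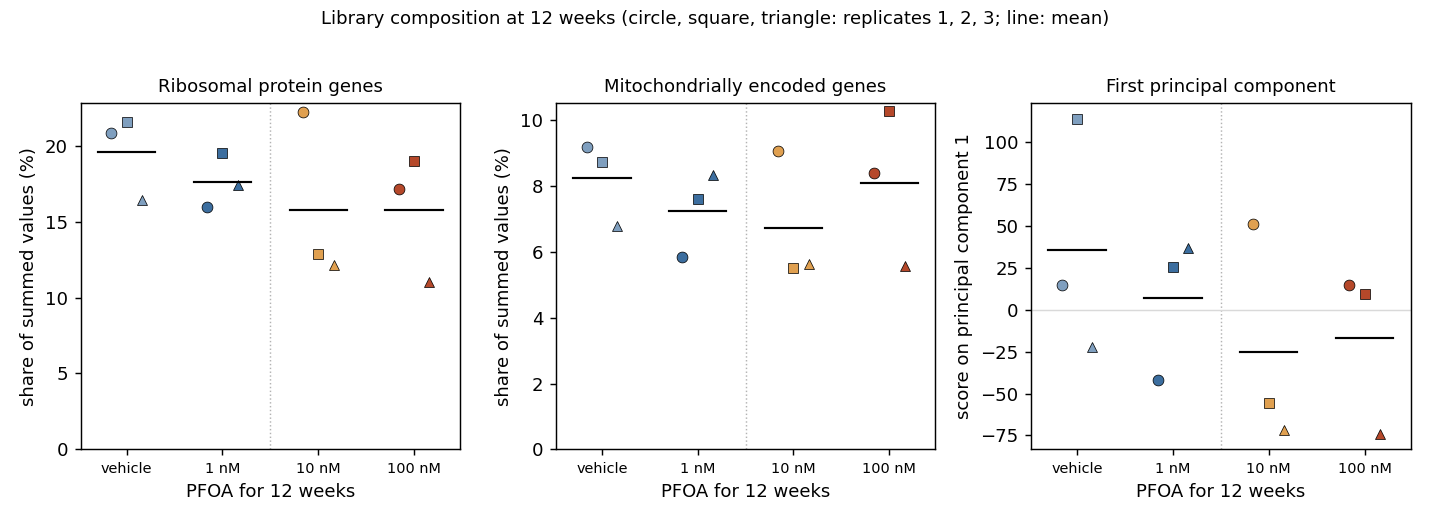
Share of the summed values taken by the 78 ribosomal protein genes and the 13 mitochondrially encoded genes (percent), and score on the first principal component, for each of the 12 libraries by dose; points are libraries and lines are means of 3. The 3 high libraries with ribosomal shares of 11.02% to 12.8% also have the 3 lowest component scores, and 10 nM replicate 1 has the highest ribosomal share, 22.2%.

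No gene passed the test of the pooled difference. Of 12304 genes tested, 0 (0%) had an adjusted p under 0.05 by limma with Benjamini-Hochberg adjustment, and the smallest adjusted p was 0.348, for SERPINB10. An unadjusted p under 0.05 was found for 140 genes (1.14%), of which 80 were higher and 60 lower in the high pool. All 6 high libraries lay above all 6 low libraries for 5 genes (0.0406%), namely SERPINB10, ID2, NOG, SLIT2 and GPATCH4. All 6 lay below for 3 genes (0.0244%), namely GIMAP1, ZCCHC18 and UBE2V1. A gene without overlap has the smallest exact permutation p that 12 libraries allow, 0.00216 two-sided, and these 8 were found among 12304. By chance alone a share of about 0.00216 of the genes would be without overlap, which is more than these 8. On recovered whole reads edgeR's quasi-likelihood test called 0 genes, with 0.258 as the smallest adjusted p and an unadjusted p under 0.05 for 174. DESeq2 called 2, SERPINB10 (adjusted p 0.000568) and LOC128125822, an uncharacterized locus. The DESeq2 log2 difference of that locus, 22.0, lies far outside the range of -2.61 to 2.73 that limma gave over all genes tested. With limma's array quality weights, which ranged from 0.104 for vehicle replicate 2 to 63.5 for 10 nM replicate 2 and whose estimation stopped before convergence, 5267 genes were called. The 140 genes at an unadjusted p under 0.05 became 39 without 100 nM replicate 3 or 10 nM replicate 2 and 2160 without 10 nM replicate 1, with 0 called without any one library. The genes below are therefore described by their values, and a value given as a difference is the mean log2(value + 1) of the 10 and 100 nM groups minus that of the vehicle and 1 nM groups, with its standard error (SE) from limma. Values per library are normalised read counts, that is, reads divided by the authors' size factor.

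SERPINB10 had the smallest limma p of the pooled difference. It encodes an intracellular serine protease inhibitor of clade B and lies at chr18:63907958-63936111 (GRCh38.p14). The normalised read counts were 8.91, 5.56 and 8.30 in vehicle and 8.70, 11.4 and 10.2 in 1 nM. They were 40.3, 37.7 and 35.9 in 10 nM and 21.2, 48.4 and 21.1 in 100 nM. Every high library stood clear of every low library, and 1 nM did not stand clear of vehicle. These levels rest on few reads, from 3 to 10 per library in the low pool and from 20 to 47 in the high pool. The difference was 1.80 ± 0.28 (log2 ± SE, n = 6 against 6; limma adjusted p = 0.348), and it lay between 1.60 and 1.89 when each library was left out in turn. After adjustment for the first principal component it was 1.82, so it was as large as without. Here and below, that component was computed from the same 12 libraries and tested genes. Adjustment for it can therefore also remove a difference between doses that lies along it. The gene was singled out after its values were seen, because its mean of 21.5 lies under the minimum of 50 set for naming genes.

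Of the 5 genes with every high library above every low one, ID2 is a target and NOG an inhibitor of BMP signalling, which in endothelium steers quiescence and sprouting. ID2, an inhibitor of DNA binding that blocks basic helix-loop-helix factors (chr2:8682056-8684461), read 55.7, 29.6 and 54.4 in vehicle, 48.7, 38.6 and 34.1 in 1 nM, 61.1, 128 and 115 in 10 nM, and 101, 64.9 and 90.0 in 100 nM. The difference was 1.07 ± 0.27 (limma adjusted p = 0.673, a value the adjustment gives to many genes at once). Against vehicle alone the log2 differences of ID2 were -0.16 at 1 nM, 1.09 at 10 nM and 0.89 at 100 nM. NOG, the secreted BMP antagonist noggin (chr17:56593699-56595611), read 257, 235 and 234 in vehicle, 211, 228 and 169 in 1 nM, 479, 395 and 303 in 10 nM, and 393, 320 and 320 in 100 nM. Its difference was 0.72 ± 0.18 (adjusted p = 0.673) and 0.78 after adjustment for the first component. The 1 nM values of ID2 lay within the vehicle range and those of NOG below it, while every library of the upper doses lay above both. ID2 belongs to a list of 20 BMP and TGF-beta genes, to which NOG does not. Of its 18 tested genes 12 were higher and 6 lower with 0 passing, and the list's median was 0.20 beside -0.01 for all genes. That median was 0.073 without vehicle replicate 2, 0.32 without vehicle replicate 1 and 0.043 after adjustment for the first component. SMAD7, an inhibitory SMAD, had 0.89 ± 0.42 and the ligand TGFB2 0.79 ± 0.44, whereas the receptors ENG and ACVRL1 had -0.62 and -0.53 and the BMP targets ID1 and ID3 had 0.02 and -0.32.

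The 250 bases before the RefSeq start of ID2 are shown because, of the genes without overlap and with a mean over 50, it had the largest difference. They lie at chr2:8681806-8682055 (GRCh38.p14, plus strand), and capitals mark matches, on either strand, to GCGTG, the core of the xenobiotic response element.
ID2: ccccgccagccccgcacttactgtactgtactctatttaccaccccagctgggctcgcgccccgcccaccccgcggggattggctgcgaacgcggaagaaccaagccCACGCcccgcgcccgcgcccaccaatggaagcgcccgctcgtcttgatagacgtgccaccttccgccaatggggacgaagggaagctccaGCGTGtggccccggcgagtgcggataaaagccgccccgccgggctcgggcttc
This core is common, in 45.4% of the 10030 promoters of tested genes that the RefSeq table holds. The AP-1 element TGACTCA, the TATA element TATAAA and the CArG box, to which serum response factor binds, had no match in this stretch.

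SLIT2 and GPATCH4 were the other genes with every high library above every low one. SLIT2, a secreted guidance ligand of the ROBO receptors (chr4:20251905-20620561, overlapping SLIT2-IT1 and MIR218-1), read 33.4, 12.97 and 30.4 in vehicle, 31.3, 21.6 and 32.9 in 1 nM, 33.8, 65.7 and 61.5 in 10 nM, and 36.0, 43.7 and 61.9 in 100 nM. The pools almost touch, since 33.8 in 10 nM replicate 1 is next to 33.4 in vehicle replicate 1. The difference was 0.89 ± 0.30, and it was 0.57 after adjustment for the first component. It was also singled out after its values were seen. GPATCH4 (chr1:156594301-156601479) was between 452 and 511 in the low pool and between 519 and 690 in the high pool, with a difference of 0.27 ± 0.16.

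The genes with every high library below every low one differed by less than 1 on the log2 scale. GIMAP1, a GTPase of the immunity-associated family expressed in endothelium and lymphocytes (chr7:150716613-150724284), read 248, 402 and 269 in vehicle, 237, 277 and 251 in 1 nM, 228, 170 and 166 in 10 nM, and 214, 189 and 155 in 100 nM. The difference was -0.57 ± 0.20, and -0.47 without vehicle replicate 2, the library with 402. ZCCHC18 (chrX:104112523-104115842) lay between 78.4 and 96.6 in the low and between 56.1 and 72.8 in the high pool, with -0.42 ± 0.18. UBE2V1, a ubiquitin-conjugating enzyme variant (chr20:50081124-50115957), lay between 1930 and 2528 and between 1834 and 1918, with -0.18 ± 0.16. Each of the 3 overlaps another annotated gene (GIMAP1-GIMAP5, SLC25A53 and PEDS1-UBE2V1), and how reads in the shared stretches were assigned is not given in the sources used here.

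**Figure D2:**
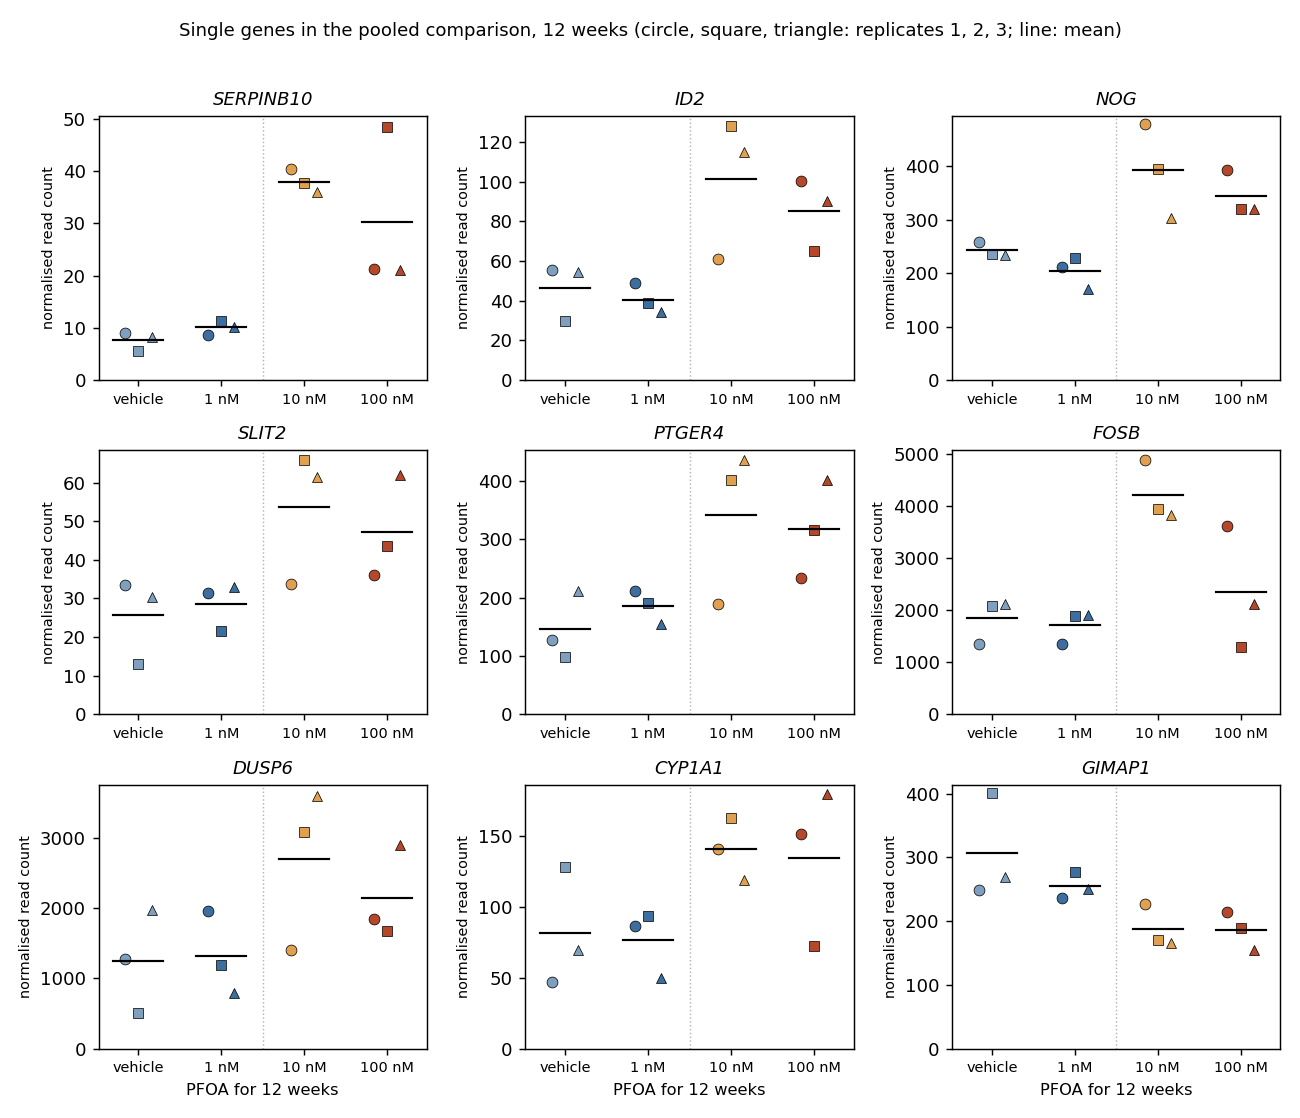
Normalised read counts of 9 genes in the 12 libraries by dose at 12 weeks; points are libraries, lines are means of 3, and the dotted line separates the low from the high pool. The pools do not overlap for SERPINB10, ID2, NOG, SLIT2 and GIMAP1, and they overlap for PTGER4, FOSB, DUSP6 and CYP1A1.

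The prostaglandin receptors pointed in both directions. PTGER4, the EP4 receptor for prostaglandin E2 (chr5:40679915-40746800, overlapping TTC33), read 128, 98.2 and 212 in vehicle, 212, 191 and 156 in 1 nM, 190, 402 and 436 in 10 nM, and 234, 316 and 402 in 100 nM. Of the 6 high libraries 5 lay above the whole low pool, and 10 nM replicate 1 did not. The difference was 0.98 ± 0.28 (limma adjusted p = 0.673; exact permutation p = 0.0108, unadjusted and one of many genes looked at). PTGIR, the prostacyclin receptor (overlapping CALM3), had 298 to 1063 in the low and 204 to 469 in the high pool, with a difference of -0.69 ± 0.33. Of 12 tested genes of prostaglandin synthesis and reception 7 were higher and 5 lower, with 0 passing and a median of 0.27. That median became -0.05 without vehicle replicate 2.

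Of the AP-1 genes, whose products dimerize into the factor that binds TGACTCA, FOS, FOSB and ATF3 had the largest positive differences, and the JUN members lay near or below 0. FOSB read 1345, 2078 and 2115 in vehicle, 1347, 1886 and 1912 in 1 nM, 4886, 3931 and 3822 in 10 nM, and 3622, 1298 and 2120 in 100 nM. All 3 libraries of 10 nM lay far above the low pool, whereas in 100 nM 1 library did, 1 stood at its upper end and 1 below it. The difference was 0.78 ± 0.26, and against vehicle it was 1.21 at 10 nM and 0.25 at 100 nM. FOS ran from 424 to 2612 in the low and from 496 to 4521 in the high pool, with 1.00 ± 0.55, and ATF3 from 1184 to 2404 and from 1713 to 3669, with 0.56 ± 0.23. JUN, JUNB and JUND had -0.21, -0.10 and 0.07. The list of 10 thus had 5 higher and 5 lower with 0 passing and a median of 0.04, and that median turned negative, to -0.13 at the lowest, when vehicle replicate 1 was left out, and also without 1 nM replicate 1, 10 nM replicate 1 or 100 nM replicate 1.

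EGR1, NR4A2 and HES1 showed the same order of doses, with 10 nM above 100 nM. EGR1, a zinc finger factor induced by growth factors, ranged from 176 to 701 in the low pool. It read 352, 1042 and 1265 in 10 nM but 402, 115 and 687 in 100 nM, and its difference was 0.53 ± 0.51. NR4A2, an orphan nuclear receptor, ranged from 13.6 to 43.3 in the low pool and read 40.3, 75.3 and 101 in 10 nM and 38.1, 12.99 and 57.9 in 100 nM, with 0.96 ± 0.42. HES1, a repressor downstream of Notch that also answers serum, had log2 differences from vehicle of 0.92 at 10 nM and 0.03 at 100 nM. The pooled difference of these genes came mostly from 10 nM, and 100 nM replicate 2 held the lowest high-pool value for FOS, FOSB, NR4A2, EGR1 and HES1. Of 15 tested immediate early genes 11 were higher and 4 lower, with 0 passing and a median of 0.30, beside 49.1% of all genes higher. Without 100 nM replicate 1 the median was 0.18, and without 100 nM replicate 2 it was 0.45. The list's median was 0.05 after adjustment for the first component and -0.01 with the ribosomal share as a covariate.

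The promoters of FOSB (chr19:45467746-45467995, plus strand) and EGR1 (chr5:138465229-138465478, plus strand) are shown because both genes belong to this wave and carry matches near their starts. Capitals mark TATAAA in FOSB, from 30 to 25 bases before the start, and the CArG boxes in EGR1, from 105 to 96 and from 83 to 74 bases before it.
FOSB: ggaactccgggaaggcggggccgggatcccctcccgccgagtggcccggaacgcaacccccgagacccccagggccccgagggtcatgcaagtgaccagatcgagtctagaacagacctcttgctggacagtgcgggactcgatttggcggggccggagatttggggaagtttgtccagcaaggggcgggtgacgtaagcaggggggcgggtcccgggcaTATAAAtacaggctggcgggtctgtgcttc
EGR1: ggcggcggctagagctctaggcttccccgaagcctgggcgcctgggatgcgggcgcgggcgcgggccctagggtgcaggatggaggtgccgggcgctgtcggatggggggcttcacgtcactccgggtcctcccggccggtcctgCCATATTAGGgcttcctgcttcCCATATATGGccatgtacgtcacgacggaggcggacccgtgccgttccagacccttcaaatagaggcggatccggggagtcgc
Among promoters of tested genes 0.977% held a CArG box within 250 bases of the start and 5.58% held TATAAA, both strands counted. The matches describe the sequence only.

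The mitogen-activated protein kinase (MAPK) feedback genes, phosphatases and Sprouty proteins that switch the ERK cascade off again, had the highest list median. Of 12 tested, 10 were higher and 2 lower with 0 passing, and the median was 0.52, or 0.30 without vehicle replicate 2. DUSP6, the phosphatase of ERK, read 1277, 502 and 1970 in vehicle, 1962, 1193 and 785 in 1 nM, 1404, 3073 and 3597 in 10 nM, and 1844, 1669 and 2892 in 100 nM. Only 3 of the 6 high libraries lay above the low pool, and the difference of 0.98 ± 0.38 was 0.71 without vehicle replicate 2. SPRY1 had 1.05 ± 0.56 at a low level of 1.85 to 39.1, DUSP5 0.56 ± 0.32 and DUSP10 0.49 ± 0.26. The 3 libraries above the low pool for DUSP6 were 10 nM replicates 2 and 3 and 100 nM replicate 3, the same 3 that had the lowest ribosomal shares. The list's median deviation from its 12-library mean was 0.49, 0.69 and 0.68 in these 3, against -0.28, 0.21 and -0.48 in the other high libraries and from -1.11 to 0.24 in the low pool. After adjustment for the first component the list median was 0.13.

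Flow-responsive factors and targets of YAP, the co-activator of the Hippo pathway, had mostly positive differences. KLF4, which keeps endothelium quiescent, read 382, 106 and 405 in vehicle, 432, 336 and 343 in 1 nM, 510, 539 and 502 in 10 nM, and 421, 672 and 501 in 100 nM. The 10 nM group lay above the whole low pool, and the difference of 0.76 ± 0.31 was 0.45 without vehicle replicate 2, which held 106. KLF6 had 0.91 ± 0.35, while KLF2 had 0.07 ± 0.27 and its target NOS3, the endothelial nitric oxide synthase, -0.34 ± 0.28. In all, 8 of 10 flow-responsive genes were higher, with 0 passing and a median of 0.29. Of 17 YAP targets 15 were higher and 2 lower, with 0 passing and a median of 0.31. LATS2, the kinase that restrains YAP, had 0.87 ± 0.36, AMOTL2, which holds YAP at junctions, had 0.89 ± 0.40, and CCN1, a matricellular protein, had 0.64 ± 0.33. The YAP list's deviation was 0.59, 0.54 and 0.64 in 10 nM replicates 2 and 3 and 100 nM replicate 3 but -0.36, 0.08 and -0.14 in the other high libraries. Its median was 0.20 without 10 nM replicate 2 and 0.12 after adjustment for the first component.

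Of 21 tested chromatin enzymes 18 were higher and 3 lower with 0 passing, and the median was 0.38. It was 0.20 without 100 nM replicate 3 and 0.61 without 100 nM replicate 2. Adjustment for the first component gave 0.14, and for the ribosomal share 0.052. EP300, a histone acetyltransferase, ranged from 96.3 to 339 in the low pool and from 164 to 691 in the high pool, with 0.94 ± 0.46, and HDAC9 had 0.89 ± 0.43. UHRF1, which recruits the maintenance DNA methyltransferase and stands in the replication list, read 120, 81.5 and 257 in vehicle, 354, 216 and 107 in 1 nM, 146, 647 and 595 in 10 nM, and 305, 231 and 897 in 100 nM. Its difference of 1.23 ± 0.49 was carried by 3 libraries, and after adjustment for the first component it was 0.57. The replication list as a whole had 22 of 39 higher and a median of 0.14, and the mitosis list 21 of 34 higher and a median of 0.08, with 0 passing in either. Without 10 nM replicate 2 the replication median was 0.047, and without vehicle replicate 2 the mitosis median was -0.034.

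PPARA and PPARD, receptors known to bind PFOA, had differences smaller than their SE, and their target genes ran in both directions. PPARA had 115 to 146 in the low and 96.3 to 171 in the high pool, with a difference of 0.09 ± 0.20, and PPARD had 0.04 ± 0.28. CPT1A, the gate of mitochondrial fatty acid oxidation, had 0.26 ± 0.24, and ANGPTL4, a lipoprotein lipase inhibitor, had -0.36 ± 0.43. FABP4, a fatty acid carrier, ranged from 23.98 to 57.9 in the low and from 15.6 to 33.1 in the high pool, with -0.48 ± 0.26. PDK4, a PPAR target that slows glucose oxidation, was at 0 in all 12 libraries. Of 26 tested PPAR and fatty acid oxidation genes 11 were higher and 15 lower with 0 passing, and the median was -0.23. UCP2, a mitochondrial carrier, stood lowest with -0.88 ± 0.42, and ACADM, the medium-chain acyl-CoA dehydrogenase, highest with 1.03. The list median was -0.13 without vehicle replicate 2 and -0.036 after adjustment for the first component.

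Sterol and amino acid stress genes gave no list in which the members shared a direction. TM7SF2, a sterol reductase, ranged from 257 to 1080 in the low and from 133 to 533 in the high pool, with -0.87 ± 0.40. HMGCS1, which opens the mevalonate pathway, had 0.73 ± 0.45. Of 24 tested sterol genes 10 were higher and 14 lower. DDIT3, the stress factor CHOP, read 2363, 3530 and 1499 in vehicle, 1593, 2372 and 2165 in 1 nM, 2270, 1084 and 898 in 10 nM, and 1566, 1729 and 864 in 100 nM. Its difference was -0.72 ± 0.30, and it overlaps MARS1. ASNS, the asparagine synthetase, had -0.24 ± 0.31 and CHAC1, a glutathione-degrading enzyme, -0.32 ± 0.47, and 15 of 23 genes of the ATF4 list were lower with a median of -0.21. That median was -0.0017 without vehicle replicate 2. It turned positive with array weights (0.053), quantile normalization (0.023) and adjustment for the first component (0.062) or the ribosomal share (0.013). None of these genes passed.

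CYP1A1, the aryl hydrocarbon receptor's classical target enzyme (chr15:74719542-74725528), read 46.8, 128 and 69.2 in vehicle, 86.1, 93.2 and 49.98 in 1 nM, 140, 163 and 119 in 10 nM, and 151, 72.0 and 179 in 100 nM. Of the high libraries 4 lay above the low pool, and 10 nM replicate 3 and 100 nM replicate 2 did not. The difference was 0.82 ± 0.31 (limma adjusted p = 0.673) and 0.86 after adjustment for the first component. The receptor AHR itself had 0.82 ± 0.43 and TIPARP, a target that represses the receptor, had 0.68 ± 0.32, and these came down to 0.42 and 0.28 with that covariate. Of 10 tested genes of the xenobiotic list 8 were higher and 2 lower, with 0 passing and a median of 0.27. It was 0.11 without vehicle replicate 2 and 0.41 without 10 nM replicate 1. The CYP1A1 promoter (chr15:74725529-74725778, minus strand) is shown with its matches to GCGTG, 57 to 53 bases before the start, and to a CArG box that contains TATAAA, 34 to 25 bases before it, in capitals.
CYP1A1: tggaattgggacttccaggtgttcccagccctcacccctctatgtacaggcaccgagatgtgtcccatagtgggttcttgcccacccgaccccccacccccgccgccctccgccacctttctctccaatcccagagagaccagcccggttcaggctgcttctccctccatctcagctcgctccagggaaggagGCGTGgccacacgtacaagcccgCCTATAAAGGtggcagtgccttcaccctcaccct

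Endothelial genes were split, while most cytokine and chemokine genes were higher and most NF-kB genes lower in the upper doses, with 0 passing. Of 24 tested endothelial genes 11 were higher and 13 lower, with 0 passing and a median of -0.11, or -0.035 without 1 nM replicate 3. SOX18, a vascular transcription factor, had -0.86 ± 0.40, and VWF, the clotting factor stored in endothelial granules, -0.38 ± 0.24. SELP, the P-selectin that captures leukocytes, read 330, 167 and 227 in 10 nM but 82.6, 63.8 and 63.4 in 100 nM, beside 84.1 to 292 in the low pool, so its pooled difference of -0.62 ± 0.30 joins unlike doses. Of 18 tested cytokine and chemokine genes 14 were higher and 4 lower, with 0 passing and a median of 0.22. That median ran from 0.14 to 0.27 when single libraries were left out. CXCL8, the neutrophil chemokine interleukin 8, ran from 437 to 1599 in the low and from 649 to 4940 in the high pool, with 0.76 ± 0.38. NFKBIZ, an inducible NF-kB cofactor, had 0.94 ± 0.43, while 10 of the 16 NF-kB genes were lower and their median was -0.28. The NF-kB median was -0.13 without vehicle replicate 2, -0.43 without 10 nM replicate 1 and 0.010 after adjustment for the first component.

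Ribosomal protein genes had the lowest list median but 0 genes that passed. All 78 were lower in the high pool, with 0 passing even at an unadjusted p under 0.05, and the median was -0.45 with a range from -0.83 to -0.14. Against vehicle alone the list median was already -0.34 at 1 nM, a low dose, and it was -0.64 at 10 nM and -0.57 at 100 nM. The list's mean log2 value varied between libraries of the same dose with an SD of 0.62, more than the size of the pooled median. RPL18 read 41428, 81343 and 23818 in vehicle, 20477, 38954 and 32502 in 1 nM, 53556, 14060 and 12501 in 10 nM, and 29740, 29281 and 11009 in 100 nM. The 3 lowest values belong to the 3 high libraries with the low ribosomal shares, whereas 53556 in 10 nM replicate 1 exceeds 5 of the 6 low libraries. The nuclear-encoded respiratory chain had 67 of 75 genes lower and a median of -0.34, the mitochondrial ribosomal proteins 41 of 51 and -0.25, and the proteasome 26 of 31 and -0.20. After adjustment for the first component these 4 medians were -0.03, -0.01, 0.00 and -0.03. The component was computed from values that include these genes, so the adjusted medians cannot separate dose from that axis. Unadjusted but without 100 nM replicate 3 the 4 medians were -0.28, -0.16, -0.14 and -0.13. Of 13 mitochondrially encoded genes 10 were lower and 3 higher, with 0 passing and a median of -0.19. That median ran from -0.45 without 10 nM replicate 1 to -0.016 without 100 nM replicate 3, and it was 0.28 after adjustment for the first component. Against vehicle alone the median of these genes was -0.48 at 1 nM, -0.62 at 10 nM and -0.27 at 100 nM. MT-ND4L, a subunit of complex I and the highest of the 13, had 4599 to 9344 in the low and 7589 to 10681 in the high pool, with 0.48 ± 0.22.

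**Figure D3:**
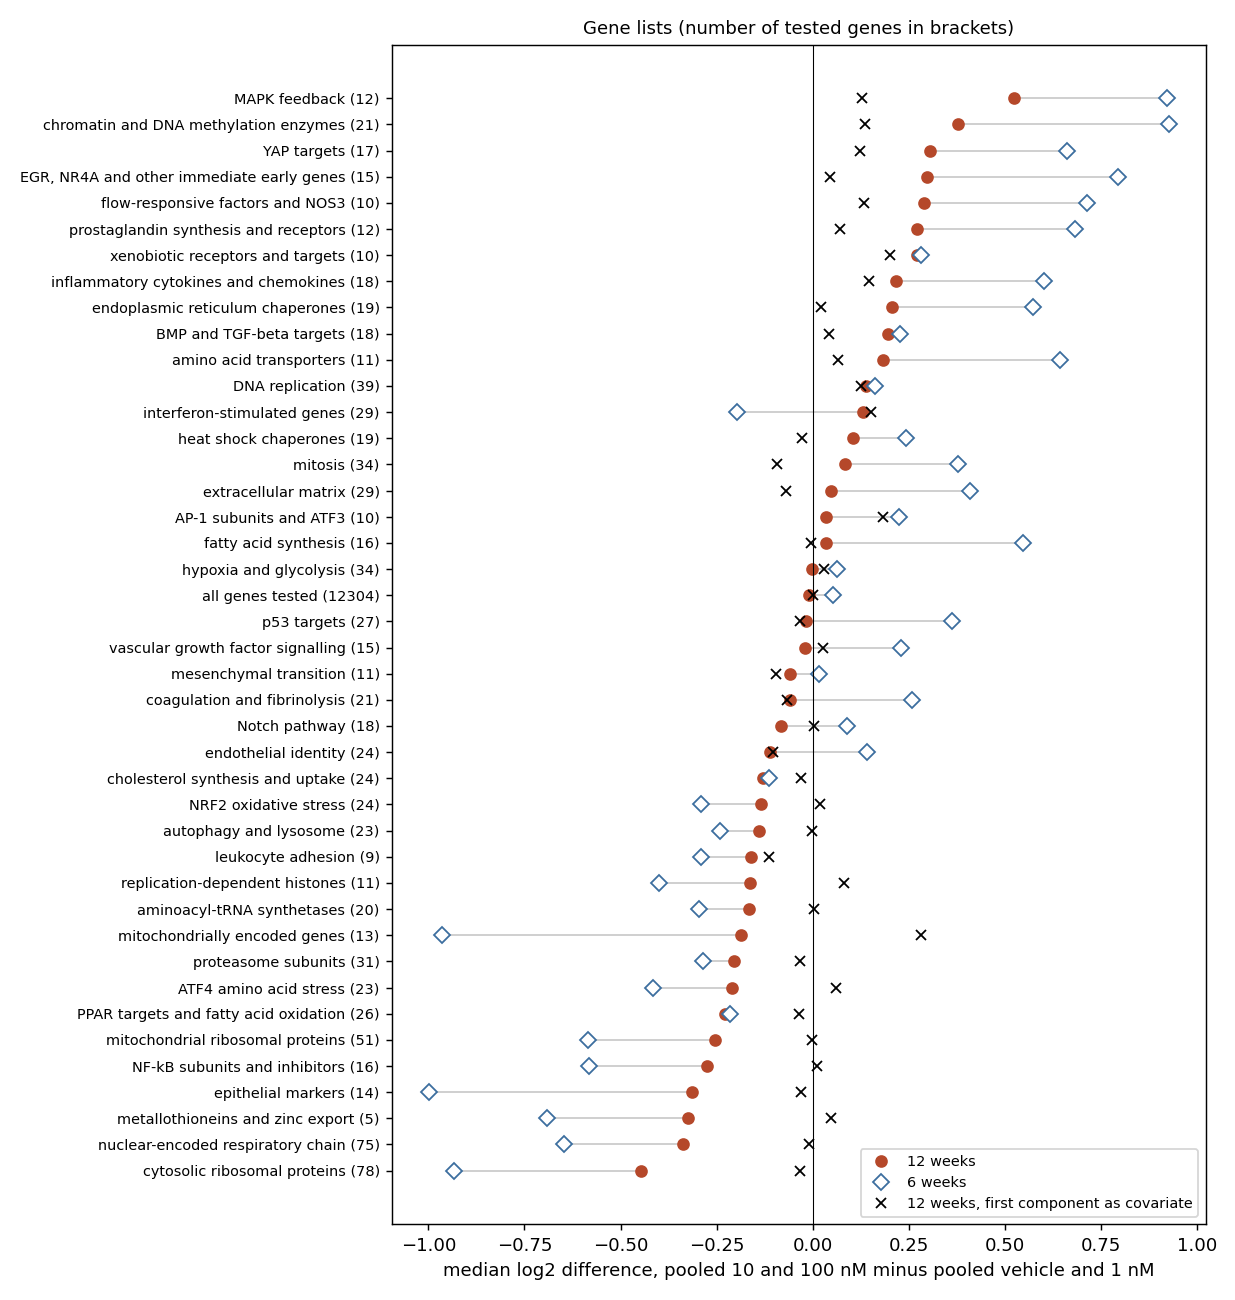
Median log2 difference between the high and the low pool for the gene lists with at least 5 tested genes and for all genes, at 12 weeks (circles), at 6 weeks (diamonds) and at 12 weeks after adjustment for the first principal component (crosses). At 12 weeks the medians run from -0.45 for ribosomal proteins to 0.52 for MAPK feedback genes, and with the covariate from -0.11 to 0.28.

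The doses joined in each pool were compared with each other in the same fit. Between 1 nM and vehicle 0 of 12304 genes passed (smallest limma adjusted p 1.00), 24 had an unadjusted p under 0.05 (0.195%), and the 3 libraries of one dose did not overlap the 3 of the other for 303 genes (2.46%). edgeR and DESeq2 called 0 as well, with 25 and 46 at an unadjusted p under 0.05. The 24 became 148 without vehicle replicate 3 and 289 after adjustment for the first component. Array quality weights called 4117 genes here too. Between 100 and 10 nM 0 passed (smallest adjusted p 1.00), 170 had an unadjusted p under 0.05 (1.38%), and 561 did not overlap (4.56%). By chance alone groups of 3 would lie apart for a larger share of the genes than either of these counts. The 170 became 59 without 100 nM replicate 2, 82 without 10 nM replicate 3, 263 without 100 nM replicate 1 and 305 without 100 nM replicate 3. It was 1062 after adjustment for the first component and 2124 with array quality weights, with 0 called in each. There edgeR called 0, with 170 at an unadjusted p under 0.05, and DESeq2 called 1, the readthrough ATP5MF-PTCD1, with an extreme log2 difference of 20.3. Among the genes with the smallest p, INSC, a cell polarity adaptor, had a mean of 65.2 ± 16.1 (SD, n = 3) in 10 nM and 153 ± 16.6 in 100 nM, a log2 difference of 1.24 ± 0.28 (SE). BHLHE41, a clock repressor, had 158 ± 33.6 and 327 ± 73.0, and FGF1, a fibroblast growth factor, 190 ± 78.2 and 684 ± 444. In the other direction ITGA10, a collagen-binding integrin, had 655 ± 150 in 10 nM and 260 ± 83.9 in 100 nM, with -1.36 ± 0.32, and SELP had 242 ± 82.4 and 69.9 ± 10.96, with -1.73 ± 0.42. HTRA1, a secreted protease, had 152 ± 28.7 and 69.8 ± 14.1, and complement C3 had 190 ± 59.6 and 83.8 ± 19.6. The pooled differences of INSC, BHLHE41, FGF1, ITGA10, HTRA1 and C3 lay between -0.31 and 0.38. These genes were picked by how clearly 10 and 100 nM lay apart. That their difference between those doses is the larger one therefore follows from the choice.

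After 6 weeks the same pooled comparison gave larger differences. By limma on its own 12 libraries 4533 of 12201 genes passed (37.2%), 2176 higher and 2357 lower, but this count depended on single libraries. It was 0 without any one of 9 of the 12 libraries, 1 without 1 nM replicate 3, 5828 without vehicle replicate 2 and 8418 without 1 nM replicate 1. It was 2 after adjustment for the first component of the same 12 libraries, which can also remove a difference between doses. The 6-week ribosomal share averaged 17.3% in the low and 12.5% in the high pool, a wider gap than at 12 weeks, and its part in the count was not tested.

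Nearly all genes called at 6 weeks had a difference of the same sign at 12 weeks, and these differences were mostly smaller. Of the 2169 genes that were called higher at 6 weeks and tested at 12 weeks, 99.0% had a positive difference at 12 weeks, with a median of 0.48 against 1.03. Of the 2340 called lower, 99.5% had a negative one, with a median of -0.50 against -1.17. Both sets were picked by their 6-week result, which by itself favours larger medians at 6 weeks. Of the 7528 tested at both times and not called, 50.1% were positive. Across 12037 genes the 2 sets of differences, from separate libraries with separate controls, had a Pearson r of 0.910 and a Spearman rho of 0.927, given as a description because genes are not independent. With the first component of each time as a covariate r was 0.205 and rho 0.224. The SD across genes was 0.40 at 12 weeks and 0.84 at 6 weeks, and differences of over 2-fold were found for 119 genes (85 higher, 34 lower) against 3169. Of 43 gene lists 34 had a median of the same sign at both times and 40 a smaller one at 12 weeks.

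No gene passed a test of the change in the difference from 6 to 12 weeks. In 1 limma model over 24 libraries and 12037 genes 0 passed (smallest adjusted p 0.716), and 91 had an unadjusted p under 0.05 (0.756%). Without single libraries this ran from 41 to 1608, the highest counts being 1608 without 6-week 1 nM replicate 1 and 580 without 12-week vehicle replicate 2. RHOB, a small GTPase of endosomes and the cytoskeleton, had 1.14 at 6 weeks and 0.31 at 12 weeks, a change of -0.83 ± 0.24. EGR1 had 2.60 and 0.53 (-2.08 ± 0.74), HES1 1.82 and 0.58 (-1.25 ± 0.46), FOSB 1.48 and 0.78 (-0.70 ± 0.31) and ATF3 1.40 and 0.56 (-0.84 ± 0.35). In these genes the 6-week pools stood further apart than the 12-week pools: EGR1 read 58.5 to 456 in the 6-week low pool and 531 to 1395 in the high pool, and at 12 weeks 176 to 701 and 115 to 1265. SERPINB10 and NOG went the other way, with 1.14 and 1.80 and with 0.44 and 0.72, and these changes of 0.66 ± 0.47 and 0.28 ± 0.20 did not pass. SERPINB10 ranged from 6.59 to 30.7 in the 6-week low libraries and from 24.9 to 44.2 in the high ones, so its pools overlapped there. ID2 had 1.75 at 6 weeks, where its pools, 19.4 to 64.5 and 79.8 to 126, did not overlap either.

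**Figure D4:**
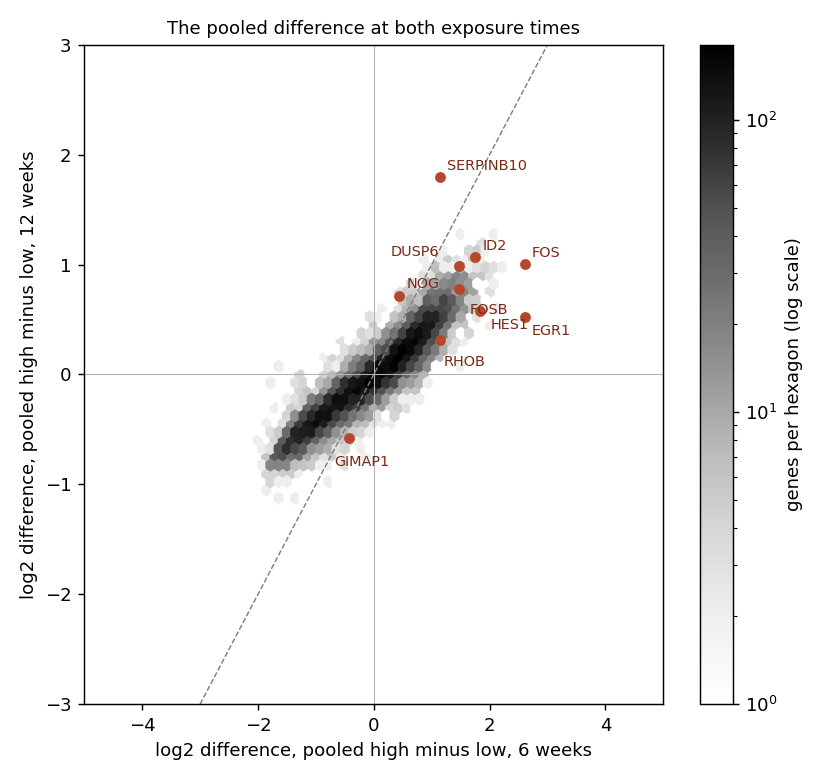
Pooled log2 difference at 12 weeks (vertical) against that at 6 weeks (horizontal) for 12037 genes, 1 of them outside the plotted range, as the number of genes per hexagon on a log scale; the dashed line marks equal differences. The slope of the 12-week on the 6-week differences is 0.44, flatter than the dashed line, and SERPINB10 and NOG lie above that line with larger differences at 12 weeks.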

How the data were processed

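The deposited 12-week and 6-week tables hold a signal per gene and library, read counts that the authors divided by 1 size factor per library; whole reads were recovered for 100% of the values of the 12-week libraries within a tolerance of 0.01. Per the submitters' processing notes HISAT, Bowtie2, DESeq2 and GRCh38.p14 were used; versions, the counting tool and its strand setting were not given in the sources used here. Of 18048 genes with values at 12 weeks, 12304 had a mean of at least 10 over the 12 libraries and were tested, and 5744 were left out. CASKIN1 and GOLGA8Q, at 10.0, lay just inside this limit, and ZNF519, at 9.996, and P2RY6, at 9.99, just outside.

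limma 3.58.1 (R 4.3.3) with an intensity trend was fitted to log2(value + 1) with 1 mean per dose. The contrast was the average of 10 and 100 nM minus the average of vehicle and 1 nM, with Benjamini-Hochberg adjustment over all tested genes and a threshold of 0.05. Fold changes on this scale understate the change of low genes. The 12 minus 6 weeks difference used 24 libraries. edgeR 4.0.16 and DESeq2 1.42.0 were run on recovered reads as alternatives, and exact permutation tests used Python 3.11.15, SciPy 1.17.1 and NumPy 2.4.6. Scripts were tested on simulated data. Other alternatives were pseudocounts, filters, scalings, covariates, a replicate block and leaving out each library. Those for the 6-week count were added after the data were seen.

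Genes were named if their pools did not overlap at a mean of at least 50, if they had one of the 5 smallest p of a list (other list members may be named with values), if they led a contrast within a pool, or if they were on a short list of single genes, of which 1 is not reported here. SERPINB10 and SLIT2 were added after their values were seen. The comparison and the gene lists were chosen with earlier results of these data known. Positions and promoters come from RefSeq on GRCh38.p14. The 48-hour libraries were not used here.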

Additional observations from a re-analysis of the deposited data

Results flagged for a closer look

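Among 120 sets of 6 values checked, 8 had 1 library set apart from the other 5 by more than Dixon's critical share of the whole range, where chance gives about 1 in 20. Vehicle replicate 2 stood apart in the low pool for 4 quantities. It held 402 for GIMAP1 against 237 to 277 in the other 5 libraries, and 106 for KLF4 against 336 to 432. For DUSP10, a phosphatase of stress kinases, it held 51.9 against 104 to 144, and it had 17815292 reads against 18641682 to 18960339. Also in the low pool, 1 nM replicate 2 held 84.1 for SELP against 189 to 292. In the high pool 100 nM replicate 2 held 26140 for ASNS against 7710 to 11550 and 361 for HES1 against 1140 to 1621. The fewest reads of the high pool, 18131131, belonged to 10 nM replicate 3, against 18808283 to 19077902.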

How the results depend on the processing

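The count of 0 genes called for the pooled 12-week difference became 2 with DESeq2 and 5267 with array quality weights, and was 0 under the other alternatives. The 6-week count of 4533 ran from 0 to 8418 when single libraries were left out, and was 2 after adjustment for the first principal component and 0 with the replicate block. The replicate block also gave 0 calls at 12 weeks, with 136 genes at an unadjusted p under 0.05 against 140, and 0 for the other contrasts. At 12 weeks the deviations from the dose mean correlated with a median of -0.401 over 18 pairs of libraries with the same number. For the 36 other pairs the median was 0.235, and at 6 weeks these medians were -0.204 and 0.11. Such deviations cancel within a dose, so the medians are tied to each other and cannot decide whether the numbers pair the flasks. The numbers were not taken to do so because the labels do not say that they mark a shared culture. For the 12 minus 6 weeks difference edgeR and DESeq2 were not run. The ribosomal share difference ran from -4.18 to -1.94 percentage points without single libraries and the mitochondrial one from -0.904 to 0.0485. Of 56 named genes under up to 27 settings each (5 genes have no value under the minimum mean of 50), 7 changed sign in 17 settings. After adjustment for the first component PPARA had -0.0086, ANGPTL4 0.25, CHAC1 0.35 and EGR1 -0.064. With the ribosomal share as a covariate CPT1A had -0.014, ANGPTL4 0.19, CHAC1 0.31 and EGR1 -0.11. PPARA had -0.063 with array weights and -0.032 with quantile normalization. Leaving out single libraries moved PPARA between -0.033 and 0.17, PPARD between -0.12 and 0.26 and KLF2 between -0.091 and 0.22. The cause of these changes was not tested. The median SE of a pooled difference was 0.30, against a median size of 0.29 over the genes tested at 12 weeks, and SERPINB10 rests on 3 to 10 reads per low library.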

Other observations

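Gene groups of protein folding and supply gave values not described above, with 0 genes passing in each. Of 19 endoplasmic reticulum chaperone genes 14 were higher in the upper doses with a median log2 difference of 0.21, and of 19 heat shock chaperones 13 were higher with a median of 0.10. Of 20 aminoacyl-tRNA synthetases, which charge transfer RNA, 15 were lower with a median of -0.16, while the amino acid transporters were split into 6 higher and 5 lower. After adjustment for the first component the chaperone medians were 0.02 and -0.03 and that of the synthetases 0.0032. Without vehicle replicate 2 the chaperone medians were 0.11 and 0.026.

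Interferon-stimulated genes had a median of 0.13 at 12 weeks, 18 of 29 being higher, and of -0.20 at 6 weeks. Epithelial genes had 12 of 14 lower with a median of -0.31 at 12 weeks and -0.998 at 6 weeks. The 12-week epithelial median was -0.03 after adjustment for the first component. Against vehicle alone it was -0.39 at 1 nM, -0.59 at 10 nM and -0.42 at 100 nM. The hypoxia and glycolysis genes were evenly split, 17 higher and 17 lower. p53 targets had 12 of 27 higher and a median of -0.02, autophagy and lysosome genes 9 of 23 and -0.14, and NRF2 targets 11 of 24 and -0.13. Without vehicle replicate 2 the NRF2 median was 0.014 and the autophagy median -0.045. Extracellular matrix genes had 15 of 29 higher and a median of 0.05.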
